A study of Mus musculus with 6 samples.

Results

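The genes described here are a list of 34 mouse genes, 21 of glycolysis and 13 of the hypoxia response, read across the arrays of Pax2 null and Pax2 heterozygous cells of the E11.5 intermediate mesoderm. Members were matched by gene symbol, with no measured value in the rule. A gene was measured where at least 1 probe set carried its symbol and no other, which held for 31 of the 34 (19 glycolysis and 12 hypoxia genes, with 72 probe sets), out of 18194 genes on the array. Gpi1 (glucose-6-phosphate isomerase), Eno1 (enolase 1) and Bnip3l (a mitophagy receptor) had no such probe set and have no value. For genes with several probe sets the brightest on average is used, and all levels and changes are on the log2 scale.

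The Pax2 null samples (n = 3) carried EGFP on 2 alleles, and the Pax2 heterozygotes (n = 3) carried EGFP on 1 allele beside a wild-type allele, as the sample titles give it. The transcription factor Pax2 is needed for kidney development, and kidneys and gonads form from the intermediate mesoderm. In each sample EGFP-positive cells were sorted from dissected embryos at E11.5, and 10 ng of total RNA was amplified for 1-colour Affymetrix arrays. There is no wild-type group. Whether the samples are from separate embryos or litters is not stated in the labels, so p-values reflect the spread among these 6 arrays, part of which may be technical. In limma each gene's spread is also drawn toward a value taken from all genes. The SE of a gene with little spread can therefore be larger than its own arrays would give. The values are bulk levels, in which fewer cells of a type and less RNA per cell cannot be told apart.

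Glycolysis splits glucose into pyruvate in the cytosol. Glucose enters through transporters, is trapped by hexokinase, is committed by phosphofructokinase and is cleaved by aldolase, and the later enzymes recover ATP. Pyruvate is then reduced to lactate by lactate dehydrogenase or passed to mitochondria by pyruvate dehydrogenase, which the kinase Pdk1 inhibits. Hypoxia-inducible factors (HIFs) join an oxygen-regulated alpha subunit to a constant beta subunit. When oxygen is plentiful, prolyl hydroxylases mark the alpha subunit for breakdown. When it is scarce, HIF binds core sites in DNA and raises many glycolytic enzymes, Pdk1, Vegfa and Bnip3.

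No listed gene passed the test in either direction, and the 4 members with the smallest p-values were all glycolysis genes. With limma and Benjamini-Hochberg adjustment over all 18194 genes at a threshold of 0.05, 0 of the 31 measured genes passed, against 253 genes (1.39%) over the whole array, 147 higher (0.808%) and 106 lower (0.583%) in nulls. At an unadjusted p under 0.05, 1 member was higher in nulls (Slc2a3) and 3 were lower (Hk2, Eno2 and Pdk1), where 5.07% of all genes were higher and 4.65% lower. Among the 19 glycolysis genes 16 were lower in nulls (84.2%), with a median change of -0.15, while among the 12 hypoxia genes 5 were lower and 7 higher, with a median of 0.02. Over all genes 53.6% were lower and the median was -0.02.

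Each null array of the glycolysis genes Hk2, Pgk1, Eno2, Ldha, Ldhb and Pdk1 lay below every heterozygote array, and 0 members had the null arrays above. Over all genes the null arrays lay below for 7.16%, above for 6.49% and apart in either direction for 13.6%. The 6 were all in glycolysis, 6 of 19, against 0 of 12 hypoxia genes. These counts use the brightest probe set of each gene, and other probe sets can differ. The other Ldhb probe sets overlapped, as did the dimmest of Pdk1. Null arrays lay below in the second Egln3 probe set and in further ones of Aldoa and Pfkp, and above in the dimmest of Slc2a3. The array by array levels are plotted by gene.

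**Figure D1:**
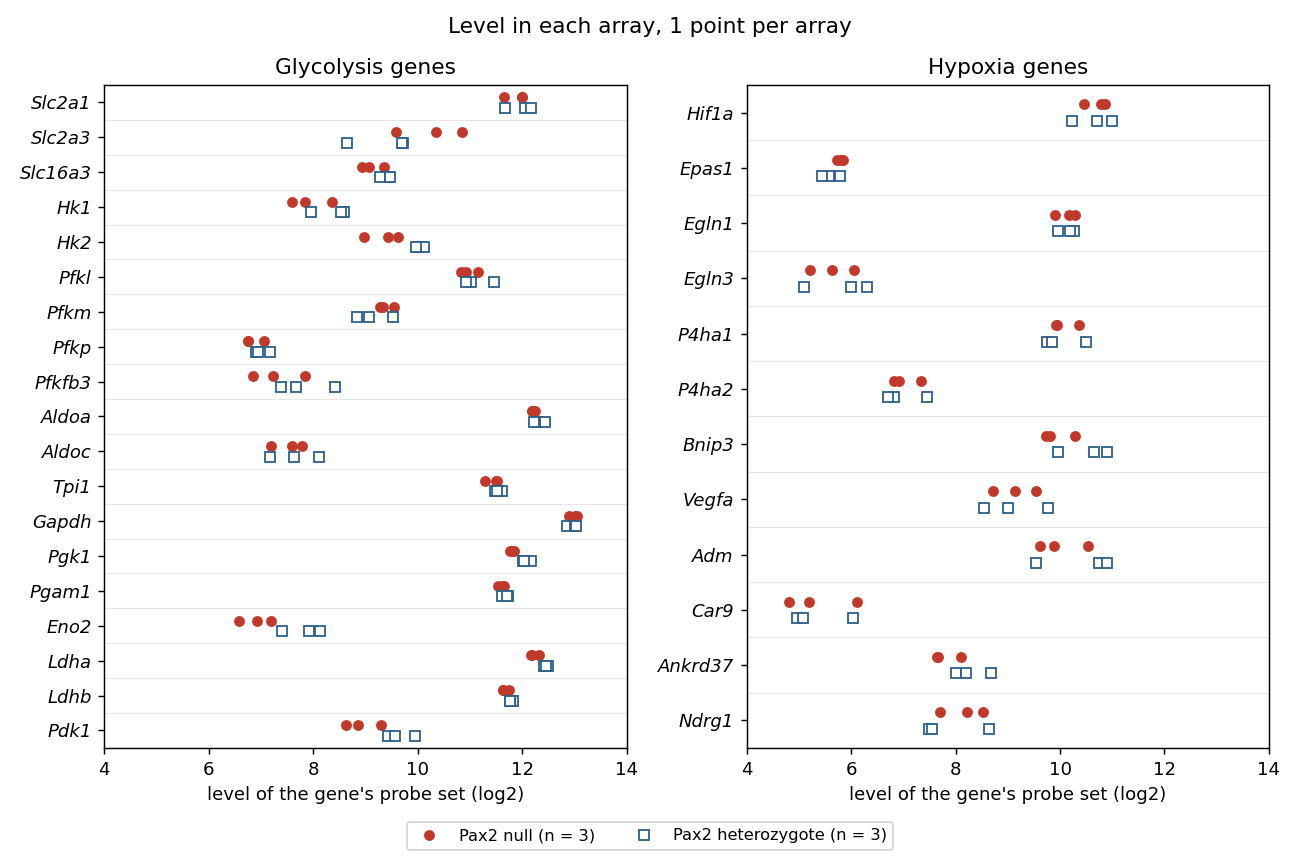
Level of each measured gene (log2, horizontal axis) in the 3 Pax2 null arrays (filled circles) and the 3 Pax2 heterozygote arrays (open squares), 1 point per array. The null arrays of Hk2, Pgk1, Eno2, Ldha, Ldhb and Pdk1 lie to the left of all heterozygote arrays, while no gene has all null arrays to the right.

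The arrays also fell into 3 pairs that the labels do not give. The 14 hybridization-control probe sets matched null 3 with heterozygote 1 (pair 1), null 1 with heterozygote 2 (pair 2) and null 2 with heterozygote 3 (pair 3), and the same arrays deviated together across genes. With the pair as a block, limma called 824 genes (4.53%), 482 higher (2.65%) and 342 lower (1.88%) in nulls. Of the members, 3 then passed, all in glycolysis: Slc2a3 rose, and Eno2 and Pdk1 fell. These 3 calls rest on a pairing found in the data. With the block and 1 pair left out, the calls of Eno2 and Pdk1 were lost whichever pair was omitted, and the call of Slc2a3 remained only without pair 3 (adjusted p = 0.0406, limma).

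The direction within the array pairs was then counted. In all 3 pairs 13 of 19 glycolysis genes were lower in nulls (68.4%) and 2 were higher (Slc2a3 and Pfkm), where 23.5% of all genes were lower in all 3 pairs and 19.1% higher. The median glycolysis change was -0.18 in pair 1, -0.10 in pair 2 and -0.18 in pair 3, against -0.06, -0.01 and 0.03 over all genes. Among the 12 hypoxia genes 2 were lower in all pairs (Bnip3 and Ankrd37) and 1 higher (Epas1), and the medians were 0.05, 0.07 and -0.18. Many glycolysis genes have bright probe sets, so the bright genes were counted too, in a description added after the data were seen. Of the 9 glycolysis genes among the brightest 10% of genes, 8 were lower in nulls and 7 were lower in all pairs, and over all 1820 genes of that class 52.2% were lower and 25.8% lower in all pairs.

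**Figure D2:**
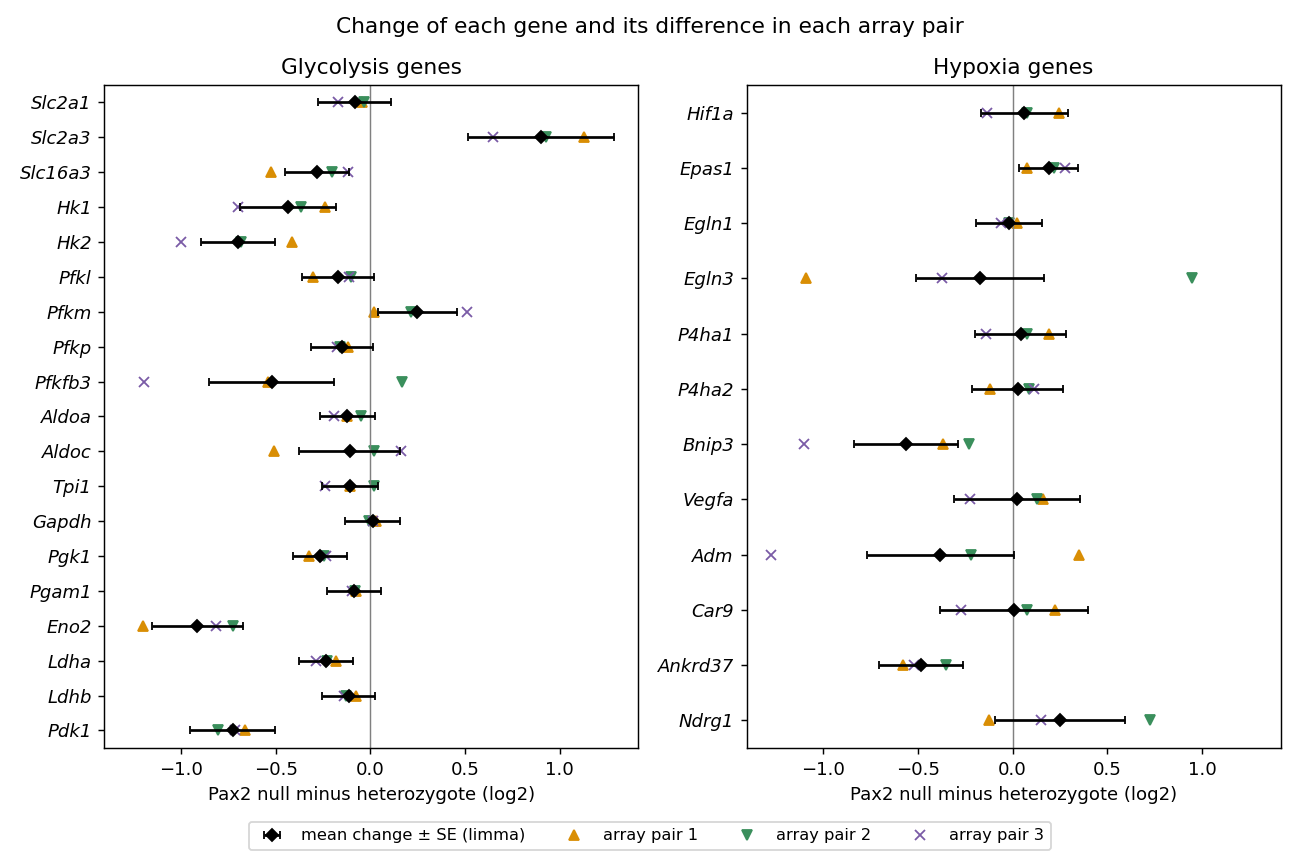
Change of each gene, Pax2 null minus Pax2 heterozygote (log2, horizontal axis), as the limma change with its SE (black diamond and bar) and as the difference within array pair 1, 2 and 3 (triangles and crosses). The glycolysis genes sit mostly left of 0, with Slc2a3 at 0.90 to the right, while the hypoxia genes scatter to both sides.

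The cells of the 2 genotypes also differed in markers of other cell types. Averaged over a list, duct markers lay at 8.23 to 8.84 in null arrays and 9.67 to 10.21 in heterozygote arrays (0 of 12 higher, 4 fell). The duct list was uneven: the 4 that fell differed by -1.40 (Gata3) to -5.97 (Calb1), and Epcam, Krt8 and Krt18 by -0.06, -0.05 and -0.05. Intermediate mesoderm and nephron progenitor markers lay at 9.26 to 9.59 in nulls and 9.83 to 10.27 in heterozygotes (1 of 11 higher, 3 fell and 1 rose). Stromal markers lay at 9.53 to 9.83 in nulls and 7.92 to 8.56 in heterozygotes (12 of 12 higher, 6 rose), and neuronal markers at 7.31 to 7.58 in nulls and 6.72 to 6.92 in heterozygotes (10 of 12 higher, 3 rose and 1 fell). Macrophage markers lay at 6.39 to 7.63 in nulls and 5.33 to 6.38 in heterozygotes (13 of 13 higher, of which 0 passed limma, 8 had an unadjusted p under 0.05 and 4 passed with the block). Of these lists, group means below the 33rd percentile of all levels (4.81) were found in nulls for 1 duct, 1 neuronal and 2 macrophage markers, and in heterozygotes for 1 stromal and 3 macrophage markers. Erythroid markers lay at 6.99 to 8.06 in nulls and 6.58 to 7.73 in heterozygotes (6 of 8 higher, 0 passed and 0 had an unadjusted p under 0.05). Endothelial markers lay at 5.14 to 5.45 in nulls and 5.23 to 5.64 in heterozygotes, with 4 of 11 dim in nulls and 6 of 11 in heterozygotes by the same limit. The part of these differences in the glycolysis values was not tested. The 3' to 5' difference of the Gapdh control probe sets, a measure of RNA breakdown, was 0.55 to 0.78 in nulls and 0.63 to 0.68 in heterozygotes.

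Promoters of the 6 genes whose null arrays all lay below the heterozygotes are shown, to let the letters of the HIF core motif be compared between them. The stretches are the 250 bases before the most upstream start of each gene in the RefSeq table of promoters (GRCm38.p6). For Pdk1 and Ldha that start lies within the gene's RefSeq span. Letters are on the gene's strand, in lower case. Each ACGTG or GCGTG core match on either strand is in capitals (read on the other strand these are CACGT and CACGC). A palindromic CACGTG is 1 place with a match on each strand.
Pdk1, chr2:71872974-71873223, plus strand: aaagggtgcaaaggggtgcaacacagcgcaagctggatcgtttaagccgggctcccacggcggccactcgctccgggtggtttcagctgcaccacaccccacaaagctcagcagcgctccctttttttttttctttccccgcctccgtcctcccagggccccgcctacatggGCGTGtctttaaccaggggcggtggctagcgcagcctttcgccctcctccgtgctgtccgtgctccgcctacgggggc
Hk2, chr6:82774455-82774704, minus strand: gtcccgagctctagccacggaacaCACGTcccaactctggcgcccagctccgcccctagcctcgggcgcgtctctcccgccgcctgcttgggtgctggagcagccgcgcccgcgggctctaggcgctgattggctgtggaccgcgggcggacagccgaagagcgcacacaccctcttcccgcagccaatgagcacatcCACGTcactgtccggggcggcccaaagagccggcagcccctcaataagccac
Pgk1, chrX:106186850-106187099, plus strand: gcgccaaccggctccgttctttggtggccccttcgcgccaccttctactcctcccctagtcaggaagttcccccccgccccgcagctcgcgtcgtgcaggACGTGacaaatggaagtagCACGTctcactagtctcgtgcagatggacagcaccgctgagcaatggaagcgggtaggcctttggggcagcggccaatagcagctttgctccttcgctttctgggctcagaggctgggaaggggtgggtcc
Ldha, chr7:46845554-46845803, plus strand: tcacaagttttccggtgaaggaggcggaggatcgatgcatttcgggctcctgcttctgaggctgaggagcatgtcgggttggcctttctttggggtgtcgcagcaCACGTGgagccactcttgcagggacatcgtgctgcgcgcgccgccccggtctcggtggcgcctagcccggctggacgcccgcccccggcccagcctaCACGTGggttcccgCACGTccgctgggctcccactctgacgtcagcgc
Ldhb, chr6:142507958-142508207, minus strand: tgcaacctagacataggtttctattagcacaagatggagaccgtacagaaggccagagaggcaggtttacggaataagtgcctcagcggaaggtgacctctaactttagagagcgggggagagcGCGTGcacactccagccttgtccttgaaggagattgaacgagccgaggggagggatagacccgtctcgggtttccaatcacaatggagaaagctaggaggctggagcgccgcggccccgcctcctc
Eno2, chr6:124769674-124769923, minus strand: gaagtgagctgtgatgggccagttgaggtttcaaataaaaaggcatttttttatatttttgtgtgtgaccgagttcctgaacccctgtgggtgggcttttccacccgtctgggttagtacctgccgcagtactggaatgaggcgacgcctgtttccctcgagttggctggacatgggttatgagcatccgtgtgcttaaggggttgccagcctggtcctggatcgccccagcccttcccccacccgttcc
Pdk1 held 1 GCGTG, Hk2 and Pgk1 held 2 ACGTG each, Ldha held 5 ACGTG matches at 3 places, Ldhb held 1 GCGTG and Eno2 held 0 in this stretch. Pdk1 and Ldha each have a second window in the table, at another start, with 0 matches of either motif for Pdk1 and 0 ACGTG and 2 GCGTG for Ldha. Over full 300-base windows, 14380 of 32851 promoters (43.8%) held ACGTG or GCGTG on either strand, and 32 of 39 windows of the list did (82.1%), in 26 of 28 genes with a window. For ACGTG alone the shares were 19.6% and 61.5%. In a comparison added after the data were seen, the listed promoters were also richer in G and C, with a median of 62% against 52.7% over all windows. Slc2a3, Epas1 and Ndrg1 were not matched to a window. The list was chosen to hold glycolysis and hypoxia response genes, so its motif share is not a result of these arrays. Some genes count with several windows. A match is a description of letters and not of binding.

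At glucose uptake the 2 transporters of the list differed in sign. Slc2a1 (GLUT1, the widespread glucose transporter) had 11.6, 12.00 and 12.00 in null arrays, against 12.04, 11.68 and 12.17 in heterozygote arrays. The groups overlapped, with a change of -0.08 ± 0.19 (SE, adjusted p = 0.992, limma, 95% interval -0.53 to 0.36). Slc2a3 (GLUT3, a high-affinity transporter of neurons and early embryos) had 9.58, 10.35 and 10.84 in nulls, against 9.71, 8.65 and 9.70 in heterozygotes. Null 2 and null 3 were above all heterozygotes and null 1 was below 2 of them, for a change of 0.90 ± 0.38, or 1.87-fold (adjusted p = 0.501, limma). Within the pairs its difference was 1.13, 0.93 and 0.65, and with the pair as a block the change had an adjusted p of 0.0250. The other 3 probe sets of Slc2a3 differed by 0.75 to 1.16, the same direction. Neuronal markers, of cells in which GLUT3 is abundant, were higher in nulls for 10 of 12 genes, and their part in the Slc2a3 value was not tested.

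Slc16a3, the lactate exporter MCT4, had 9.08, 9.35 and 8.93 in nulls, against 9.45, 9.28 and 9.47 in heterozygotes. It overlapped by 1 array and differed by -0.28 ± 0.17 (adjusted p = 0.756, limma).

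Both hexokinases, which phosphorylate glucose and trap it in the cell, averaged lower in nulls. Hk2, the inducible form, had 9.44, 8.97 and 9.61 in null arrays, against 10.03, 10.12 and 9.97 in heterozygote arrays. All null arrays were below all heterozygotes, and the SD was 0.33 in nulls and 0.08 in heterozygotes. Its change was -0.70 ± 0.20, 1.62-fold lower (adjusted p = 0.190, limma), with pair differences of -0.41, -0.68 and -1.0 and an adjusted p of 0.0645 with the block. Hk1, the housekeeping form, had 7.59, 7.84 and 8.36 in nulls, against 8.60, 7.96 and 8.54 in heterozygotes, overlapping and differing by -0.44 ± 0.26 (adjusted p = 0.743, limma).

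The phosphofructokinase subunits, which carry out the committing step, spread to both sides. Pfkm, the muscle subunit, had 9.28, 9.34 and 9.54 in nulls, against 9.52, 9.06 and 8.83 in heterozygotes, a change of 0.25 ± 0.21 (adjusted p = 0.897, limma). Pfkl, the liver subunit, differed by -0.17 ± 0.19 (adjusted p = 0.962) and Pfkp, the platelet subunit, by -0.15 ± 0.16 (adjusted p = 0.960), and the arrays of both overlapped. Pfkfb3, which makes the activator of phosphofructokinase, had 7.84, 7.22 and 6.84 in nulls, against 7.38, 7.67 and 8.42 in heterozygotes. Its change of -0.52 ± 0.33 (adjusted p = 0.790, limma) came from pairs that differed in sign, -0.54, 0.17 and -1.19, and its second probe set gave -1.03.

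The aldolases, which cleave fructose bisphosphate, and Tpi1 (triosephosphate isomerase) differed by less than the limma SE of their changes. Aldoa, the main form in most tissues, differed by -0.12 ± 0.14 (adjusted p = 0.969, limma), and all 5 of its probe sets were lower in nulls. Aldoc differed by -0.11 ± 0.27 (adjusted p = 0.992) with probe sets of both signs, and Tpi1 by -0.11 ± 0.15 (adjusted p = 0.976).

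The genes of the later phase of glycolysis, in which ATP is recovered, included the largest lower value of the list, Eno2 (enolase 2, the neuronal form). Eno2 had 7.19, 6.58 and 6.93 in null arrays, against 8.13, 7.91 and 7.4 in heterozygote arrays. No null array reached a heterozygote array, and its change was -0.91 ± 0.24, or 1.88-fold lower (adjusted p = 0.158, limma, 95% interval -1.47 to -0.36). The pairs differed by -1.20, -0.72 and -0.82, and with the pair as a block Eno2 fell at an adjusted p of 0.0257. Of 12 neuronal markers 10 were higher in nulls, 3 of which rose (Nefm, Map2 and Stmn2), while Elavl4 fell by 1.54 ± 0.29 (adjusted p = 0.0493, limma) and Snap25 was at -0.25 ± 0.36, the direction of Eno2. Snap25 is named after its value was seen, and the part of the neuronal markers in the Eno2 value was not tested.

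Pgk1 (phosphoglycerate kinase, an ATP-yielding step) had 11.77, 11.80 and 11.84 in nulls, against 12.17, 12.02 and 12.03 in heterozygotes. The null arrays all lay below, by 0.27 ± 0.14 (adjusted p = 0.672, limma), and its 3 probe sets gave -0.27 to -0.37. Gapdh, whose only single-gene probe sets are the array's control probe sets, had 13.01, 13.05 and 12.90 in nulls, against 12.87, 13.02 and 13.04 in heterozygotes. Its change was 0.01 ± 0.15 (adjusted p = 0.996), with an interval of -0.32 to 0.35, and Pgam1 (phosphoglycerate mutase) differed by -0.08 ± 0.14 (adjusted p = 0.985).

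At the pyruvate branch, Ldha, Ldhb and Pdk1 all had null arrays below heterozygotes in the probe sets used. Pdk1, which inhibits pyruvate dehydrogenase and so limits entry of pyruvate into mitochondria, had 8.62, 8.85 and 9.29 in nulls, against 9.95, 9.43 and 9.57 in heterozygotes. All 3 null arrays were lower and the change was -0.73 ± 0.22, 1.66-fold lower (adjusted p = 0.247, limma). The pairs gave -0.66, -0.80 and -0.71, close together, and with the pair as a block Pdk1 fell at an adjusted p of 0.0236. Its 4 probe sets gave -0.72 to -0.98. Among single probe sets tested with the block over the whole array, 1 of these 4 passed, as did 1 of the 4 of Slc2a3, while the only probe set of Eno2 was at 0.0561.

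Ldha, the lactate dehydrogenase subunit favouring lactate, had 12.18, 12.17 and 12.31 in nulls, against 12.49, 12.41 and 12.46 in heterozygotes. The groups did not overlap, and the change was -0.23 ± 0.14 (adjusted p = 0.763, limma). Ldhb, the subunit favouring pyruvate, had 11.63, 11.63 and 11.74 in nulls, against 11.82, 11.76 and 11.77 in heterozygotes, also without overlap, for -0.11 ± 0.14 (adjusted p = 0.970). In the other Ldhb probe sets, of like brightness, the groups overlapped. All 4 probe sets were lower in nulls on average, by -0.06 to -0.17.

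Of the listed HIF alpha subunits and the hydroxylases that mark them, none passed the test. In the probe sets used, the arrays of the genotypes overlapped for all 4 genes. Hif1a had 10.79, 10.87 and 10.47 in nulls, against 10.22, 10.71 and 11.002 in heterozygotes, a change of 0.06 ± 0.23 (adjusted p = 0.992, limma, interval -0.47 to 0.59). HIF-1 alpha is known to be controlled mainly through the stability of its protein, which arrays do not measure. Epas1 (HIF-2 alpha) had 5.80, 5.72 and 5.86 in nulls, against 5.78, 5.58 and 5.45 in heterozygotes, for 0.19 ± 0.16 (adjusted p = 0.896), and its pair differences were 0.08, 0.22 and 0.28. Egln1, the main oxygen-sensing hydroxylase, differed by -0.02 ± 0.17 (adjusted p = 0.995).

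Egln3, a hydroxylase that HIF itself induces, had 6.06, 5.63 and 5.21 in nulls, against 6.30, 5.11 and 6.0 in heterozygotes. Its change of -0.17 ± 0.34 (adjusted p = 0.990, limma) came from pair differences of -1.09, 0.95 and -0.37. Its dimmer second probe set gave -0.91 without overlap, at 4.40, 4.31 and 4.43 in nulls, against 5.49, 4.83 and 5.56 in heterozygotes. These null arrays lay below the 33rd percentile of all levels (4.81).

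Among further hypoxia targets, Bnip3 and Ankrd37 were lowest in nulls and none passed. Bnip3, a mitophagy receptor, had 9.72, 9.80 and 10.29 in null arrays, against 10.65, 9.95 and 10.90 in heterozygote arrays. The change was -0.57 ± 0.27 (adjusted p = 0.601, limma), and pair 3 differed most, at -1.10 against -0.37 and -0.23. Ankrd37, a HIF-induced ankyrin repeat gene, had 7.65, 7.67 and 8.10 in nulls, against 8.68, 8.01 and 8.19 in heterozygotes, for -0.49 ± 0.22 (adjusted p = 0.558) and 0.0780 with the block.

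The secreted members Vegfa, the endothelial growth factor, and Adm (adrenomedullin), a vasodilator peptide, varied more between arrays than between genotypes. Vegfa had 9.14, 9.55 and 8.72 in nulls, against 8.55, 9.01 and 9.77 in heterozygotes (0.02 ± 0.33, adjusted p = 0.996, limma). Adm had 10.54, 9.62 and 9.89 in nulls, against 9.54, 10.76 and 10.89 in heterozygotes (-0.38 ± 0.39, adjusted p = 0.946). The other Adm probe set was far dimmer, with means of 4.585 in nulls and 4.942 in heterozygotes, near the 33rd percentile of all levels (4.81). The level of Adm therefore depends on the probe set. Car9 (a carbonic anhydrase, the classical hypoxia marker) had 6.11, 4.81 and 5.20 in nulls, against 4.97, 6.04 and 5.08 in heterozygotes, a change of 0.01 ± 0.39.

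Ndrg1, a stress-responsive gene, averaged higher in nulls, by 0.25 ± 0.34 (adjusted p = 0.976, limma), and all 5 of its probe sets were above 0, at 0.13 to 0.56. The collagen prolyl hydroxylases P4ha1 and P4ha2, which stabilise collagen, differed by 0.04 ± 0.24 and 0.03 ± 0.24. Over the 21 members with several probe sets, 17 had all of them on the same side.

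**Figure D3:**
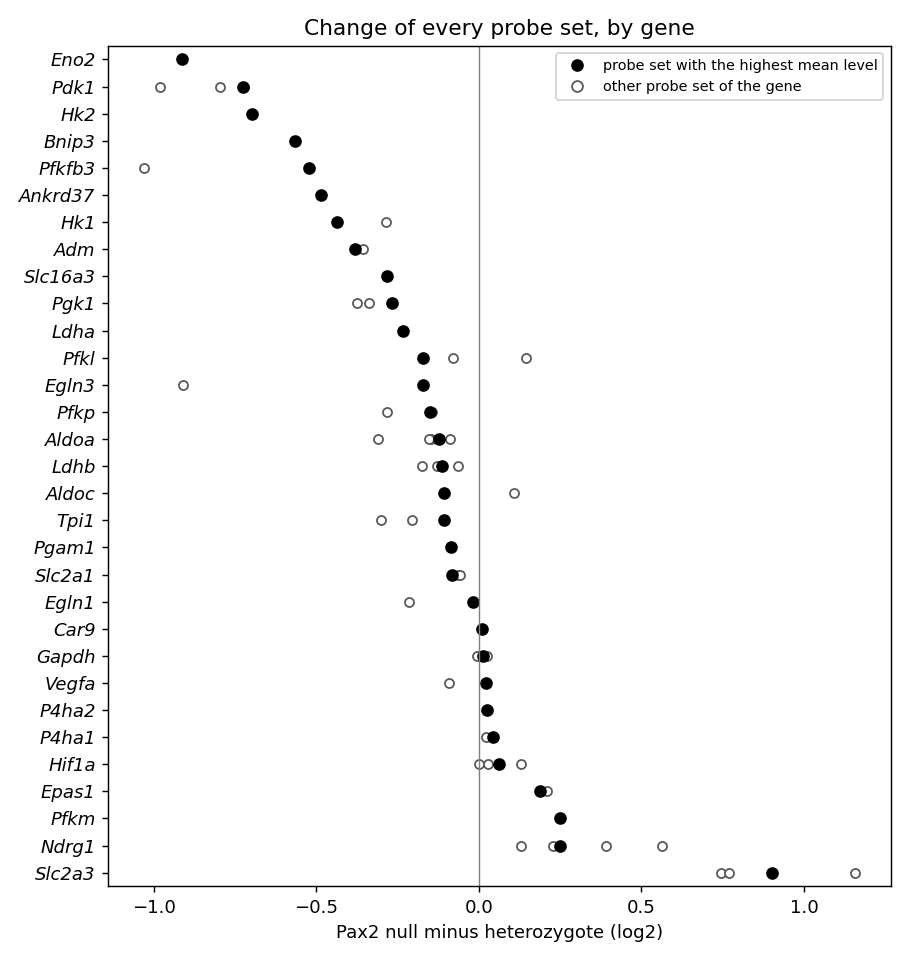
Change of every probe set, Pax2 null minus Pax2 heterozygote (log2, horizontal axis), by gene, with the highest-mean probe set filled and the others open. The 4 Pdk1 probe sets lie between -0.98 and -0.72 and the 4 Slc2a3 probe sets between 0.75 and 1.16, while Aldoc, Pfkl, Vegfa and Gapdh lie on both sides of 0.

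Related genes were compared within each array, which asks whether they changed unequally. A difference of 2 probe sets is no ratio of transcripts, so only the change between genotypes is read. Of 9 pairs, 3 separated all null from all heterozygote arrays, and each had an exact two-sided permutation p of 0.1, the smallest 3 against 3 arrays allow (0.3 adjusted over the 9). Slc2a3 less Slc2a1 was -1.62 ± 0.45 in nulls and -2.61 ± 0.37 in heterozygotes (SD), with pair differences of 1.17, 0.96 and 0.82. Pfkm less Pfkl was -1.58 ± 0.08 in nulls and -2.00 ± 0.09 in heterozygotes, with pair differences of 0.32, 0.32 and 0.62. Ldhb less Ldha was -0.55 ± 0.02 in nulls and -0.67 ± 0.02 in heterozygotes, with pair differences of 0.10, 0.10 and 0.15. These differences use the brightest probe set of each gene. With some of the other Ldhb probe sets, or with the second-brightest of Pfkl, the genotypes overlapped. The other 6 differences had exact p-values of 0.5 or more. This permutation does not use the array pairs: Hk2 less Hk1 (p = 0.5, exact) had pair differences of -0.17, -0.32 and -0.30, all of 1 sign, and the other 5 had pair differences of both signs.

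**Figure D4:**
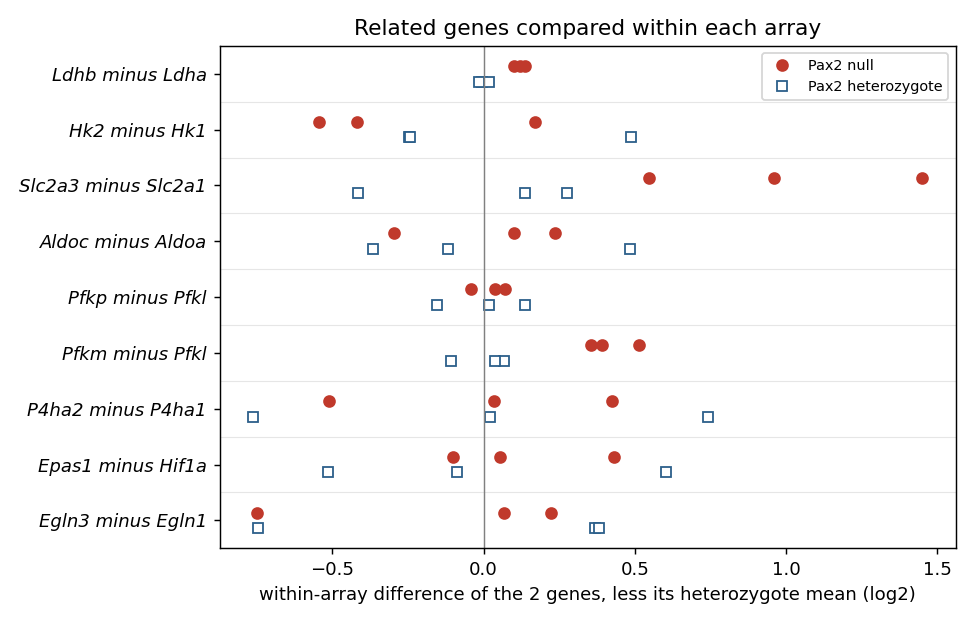
Within-array difference of related genes, less its heterozygote mean (log2, horizontal axis), in Pax2 null arrays (filled circles) and Pax2 heterozygote arrays (open squares). Null arrays lie to the right of all heterozygote arrays for Slc2a3 minus Slc2a1, Pfkm minus Pfkl and Ldhb minus Ldha, and the groups overlap for the rest.

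Of 19 measured glycolysis genes outside the list, 12 were lower and 7 higher in nulls, with a median of -0.13, and 1 passed. Hkdc1, a hexokinase family gene, fell by 1.86 ± 0.32 (adjusted p = 0.0351, limma), with 4.66, 4.76 and 5.43 in nulls, against 7.45, 6.34 and 6.64 in heterozygotes. It kept its call without null 3 or heterozygote 1 and lost it without null 1, null 2, heterozygote 2 or heterozygote 3. The mean change of its 2 probe sets was -0.85, so the dimmer probe set was not lower in nulls. In the probe set used, null arrays 1 and 2 of Hkdc1 were below the dim limit of 4.81, where differences are compressed. Slc2a2 (GLUT2, of liver, gut and kidney epithelium) had 2.95, 3.01 and 2.93 in nulls, against 6.64, 4.58 and 4.74 in heterozygotes. All 3 null arrays and 2 of the 3 heterozygote arrays lay below that limit, so no size is given for its difference. Slc2a4 (GLUT4, of muscle and fat) had 9.25, 9.27 and 9.12 in nulls, against 8.34, 8.66 and 8.46 in heterozygotes (0.73 ± 0.16, adjusted p = 0.0841, 0.0275 with the block).

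Genes of the next steps of carbon flow had a median change of -0.06, against -0.15 for the listed glycolysis genes and -0.02 over all genes. Of 26 genes of pyruvate dehydrogenase and the tricarboxylic acid cycle 19 were lower (73.1%) and 7 higher, and 10 (38.5%) were lower and 1 higher in all 3 pairs. Over all genes 53.6% were lower, 23.5% were lower in all 3 pairs and 19.1% higher in all 3. None of the 26 passed limma and 1 was lower at an unadjusted p under 0.05 (limma), where 4.65% of all genes were. That gene was Suclg2, a subunit of succinyl-CoA ligase, at -0.64 ± 0.21 (adjusted p = 0.284, 0.0444 with the block). Of 17 genes of the HIF machinery 11 were higher in nulls (64.7%, against 46.4% of all genes) and 6 lower. In all 3 pairs 8 (47.1%) were higher and 4 (23.5%) lower. Of these genes 0 passed limma, and 1 in each direction had an unadjusted p under 0.05. The higher was Hif3a, a further HIF alpha subunit, at 0.62 ± 0.27 (adjusted p = 0.512, limma), with overlapping arrays. Its pair differences were 0.41, 1.07 and 0.38. The lower was Cited2. Cited2, which competes with HIF for a co-activator, had 10.76, 10.80 and 11.13 in nulls, against 11.59, 11.41 and 11.63 in heterozygotes (-0.65 ± 0.17, adjusted p = 0.147, 0.0480 with the block).

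Of 34 further HIF targets, 22 were lower (64.7%, against 53.6% of all genes) and 12 higher, with a median of -0.07, and 1 passed. At an unadjusted p under 0.05 (limma) 5 were higher and 5 lower, where 5.07% of all genes were higher and 4.65% lower. With the block 3 rose and 1 fell. Stc1 (stanniocalcin 1, a secreted hormone) fell by 1.32 ± 0.21 (adjusted p = 0.0261, limma), with 6.49, 6.13 and 6.0 in nulls, against 7.26, 7.84 and 7.49 in heterozygotes. It kept its call without heterozygote 1 and lost it without any other single array. The mean change of the 2 Stc1 probe sets was -0.78, so Stc1 differed less by its dimmer probe set. Its relative Stc2 lay at -1.30 ± 0.25 (adjusted p = 0.0529), and Hmox1 (haem oxygenase 1, expressed strongly in macrophages) had 8.76, 9.01 and 8.49 in nulls, against 7.90, 7.44 and 7.90 in heterozygotes (1.01 ± 0.21, adjusted p = 0.0696, 0.0350 with the block). The part of the macrophage markers in the Hmox1 value was not tested.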

How the data were processed

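RNA of EGFP-positive cells was hybridized to 6 1-colour Affymetrix arrays, amplified from 10 ng per the labels' protocols. The authors deposited log2 values, 1 per probe set and array, and the submitters' processing notes name affy, RMA and limma without versions. RMA equalizes the arrays' distributions, which hides differences in total RNA per cell, and compresses dim probe sets. Of 45101 probe sets, 34958 had exactly 1 symbol, and the probe set with the highest mean stood for its gene.

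Null minus heterozygote was fitted by lmFit and eBayes (limma 3.58.1, R 4.3.3; two-sided, Benjamini-Hochberg over 18194 genes, threshold 0.05), with no covariate and no filter on dim probe sets. Errors are SE of changes, moderated by eBayes toward the spread of all genes, and SD over 3 arrays, which is not moderated. For Ldhb the SD was 0.06 in nulls and 0.03 in heterozygotes, and the SE of its change was 0.14. The pair block came from 14 hybridization controls (summed distance 1.94 against 5.05 for the next of 15 matchings), and pair members deviated together at r of 0.377 or more, opposite-genotype arrays of other pairs at 0.097 or less. The fits were tested on simulated data. Alternatives were priors, a filter, probe set rules, centring, quantile normalization, array weights, thresholds, the pair block and omission of arrays or pairs. All members were named. Of other lists, called genes or up to 3 with the smallest p were. Members and lists were chosen with earlier results of these data known. Pax2 itself is not analysed here.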

Additional observations from a re-analysis of the deposited data

How the results depend on the processing

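Among the 31 members, 20 kept their sign in all 18 alternatives, and 14 of the 16 lower glycolysis genes were lower in each. Some of the 18 could not turn a sign. The priors, the filter, all probe sets as units and the pair block leave the size of each change as it was and alter only its p-value. The number of glycolysis genes lower lay between 15 and 17. The count of members passing was 0 in every alternative run except the pair block, which gave 3 glycolysis genes, and the block without array pair 3, chosen after the data were seen, which gave 1. Over all genes the count was 824 with the pair block, 551 with array weights, 405 at a threshold of 0.10, 51 at 0.01, 1 without array pair 2, 2 without array pair 3, and 84 to 318 with 1 array left out. The motif share of the promoters was 61.5% for ACGTG alone.

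The sign turned in at least 1 alternative for 11 members, among them Adm, at -0.38 in the report, and Egln3, at -0.17, and the cause was not tested. With the mean over probe sets Vegfa was -0.0347 and Pfkp less Pfkl -0.16. With median centring Gapdh was -0.0183, P4ha2 -0.0037, Vegfa -0.0076 and Car9 -0.0216, and with renewed quantile normalization Car9 was -0.0114. With array weights Gapdh was -0.0071, Hif1a -0.0489, Egln1 0.0155, Egln3 0.0693, P4ha1 -0.0913 and Vegfa -0.14. Without array pair 1 Aldoc was 0.0917, Hif1a -0.0302, Egln3 0.29, P4ha1 -0.0317, Vegfa -0.0470, Car9 -0.0987, Pfkp less Pfkl -0.0616, P4ha2 less P4ha1 0.13 and Egln3 less Egln1 0.33. Without pair 2 P4ha2 was -0.0037, Vegfa -0.0304, Car9 -0.0239 and Aldoc less Aldoa -0.0144. Without pair 3 Egln1 was 0.0022, P4ha2 -0.0166, Adm 0.0666, Aldoc less Aldoa -0.16 and Epas1 less Hif1a -0.0140.

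With 1 array left out, the changes that turned sign lay between -0.34 and 0.13 for Aldoc, -0.36 and 0.35 for Car9, -0.11 and 0.0927 for Egln1, -0.52 and 0.0759 for Egln3, -0.0422 and 0.0563 for Gapdh, -0.15 and 0.24 for Hif1a, -0.10 and 0.28 for P4ha1, -0.13 and 0.26 for P4ha2, -0.23 and 0.0348 for Slc2a1, and -0.26 and 0.35 for Vegfa. The differences lay between -0.17 and 0.25 for Aldoc less Aldoa, -0.53 and 0.15 for Egln3 less Egln1, -0.13 and 0.43 for Epas1 less Hif1a, -0.40 and 0.35 for P4ha2 less P4ha1, and -0.0544 and 0.0901 for Pfkp less Pfkl.

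The labels give no replicate numbers shared between genotypes, so the pair block rests on the hybridization controls and on the shared deviations of the paired arrays across genes. The number of arrays limits precision.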

Other observations

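Gene groups of stress and of other carbon routes gave no call in limma. Of 10 integrated stress response genes 7 were higher and 3 lower in nulls, with a median change of 0.09, and Atf4, the transcription factor of that response, was at -0.27 ± 0.16 (SE, adjusted p = 0.768, limma). Of 10 immediate early genes that cell dissociation can induce, 7 were higher and 3 lower, with medians of 0.44, 0.31 and -0.37 in array pairs 1, 2 and 3. Of 6 pentose phosphate genes 4 were lower (median -0.03), and of 11 genes of gluconeogenesis and glycogen 7 were higher (median 0.09). None of these 4 lists had a gene past an unadjusted p of 0.05.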
